A study of Homo sapiens with 3 samples.

Results

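The kinesin, centromere and mitotic checkpoint genes were taken from the gene table by their symbols: the KIF genes with a number and at most 1 of the letters A to C, the CENP genes with a single letter, the aurora kinases AURKA to AURKC, the polo-like kinases PLK1 to PLK5, and 14 single genes, BUB1, BUB1B, BUB3, MAD2L1, TTK, CDC20, ASPM, TPX2, BIRC5, INCENP, NDC80, NUF2, MKI67 and TOP2A. These symbols matched 82 of the 60605 genes listed. Not all of them act in mitosis. Of the 39 KIF genes, 14 encode motors known for work on the spindle or in cytokinesis and 25 encode motors of cargo transport, cilia or other uses, so the transport and ciliary motors were kept as a group of their own.

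The cells were RCC4, an established line of human clear cell renal carcinoma known to lack functional VHL protein, transduced before the experiment with a lentivirus for Cas9. Each of the 3 libraries is a biological replicate pooled from 3 flasks and holds poly(A) RNA prepared with a directional kit. Every replicate had received IFN-γ (1000 U/mL) together with TNF (25 ng/mL) for 24 h. Untreated cells were not analysed here, and with 1 group no test between conditions was possible. All means are given with their SD over these libraries (n = 3).

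Mitosis depends on a bipolar spindle of microtubules. Kinesin motors push spindle poles apart, shorten microtubule ends and carry chromosomes, while centromere proteins mark the place on each chromosome where the kinetochore assembles to grip the microtubules. The spindle assembly checkpoint holds back CDC20, the activator of the anaphase-promoting complex, until every kinetochore is attached. Aurora and polo-like kinases time these steps, and many of the genes are transcribed mainly in G2 and M phase, so their RNA is widely used as a sign of proliferation.

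Reads counted in genes numbered 29199806 in replicate 1, 26264283 in replicate 2 and 33458691 in replicate 3. The common biological coefficient of variation, the spread between libraries beyond counting error, was 0.284 over all 3 libraries and 0.0718 for replicates 2 and 3 alone, so replicate 1 stood apart. All 10 renal epithelial markers examined were detected, with summed levels of 420, 310 and 313 RPKM in replicates 1, 2 and 3. KRT8 alone gave 183, 130 and 128 RPKM of these sums. EPCAM and CDH6 were lower in replicate 1 than in the other libraries, and the other markers were not. Leukocyte markers were detected for 0 of 5 genes (summed 0.113, 0.225 and 0 RPKM), with PTPRC, CD3E and LYZ at 0 in each library. Endothelial markers were detected for 0 of 4 (0.029, 0.0721 and 0.0284 RPKM), with KDR at 0. Fibroblast markers were detected for 1 of 5 (0.994, 0.856 and 0.829 RPKM), with COL1A2 and LUM at 0.

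Levels are given as RPKM, which is the depth-scaled count (CPM, with TMM scaling) divided by the length of the gene's exons in kilobases. A gene counted as detected at 1 CPM or more in each library. By that rule 66 of the 82 genes were detected, 80.5%, against 18.6% of all genes in the table and 51.4% of the protein-coding genes. The median of the 82 mean levels was 4.96 RPKM, against 0.482 RPKM for the 19861 protein-coding genes. Among detected genes alone these medians were much closer, 7.47 RPKM for the members and 6.09 RPKM for the protein-coding genes. The medians of all 82 members per library were 2.30, 5.94 and 6.90 RPKM in replicates 1, 2 and 3, so replicate 1 had the lowest. Without replicate 1, 69 members were detected. A mean of 10 RPKM was reached by 30 members. Whether a low level reflects fewer cells in mitosis or less RNA per mitotic cell cannot be told apart in bulk RNA. Other reasons for a low level, including the lower median of replicate 1, were not tested. The plot of levels by role shows these values gene by gene.

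**Figure D1:**
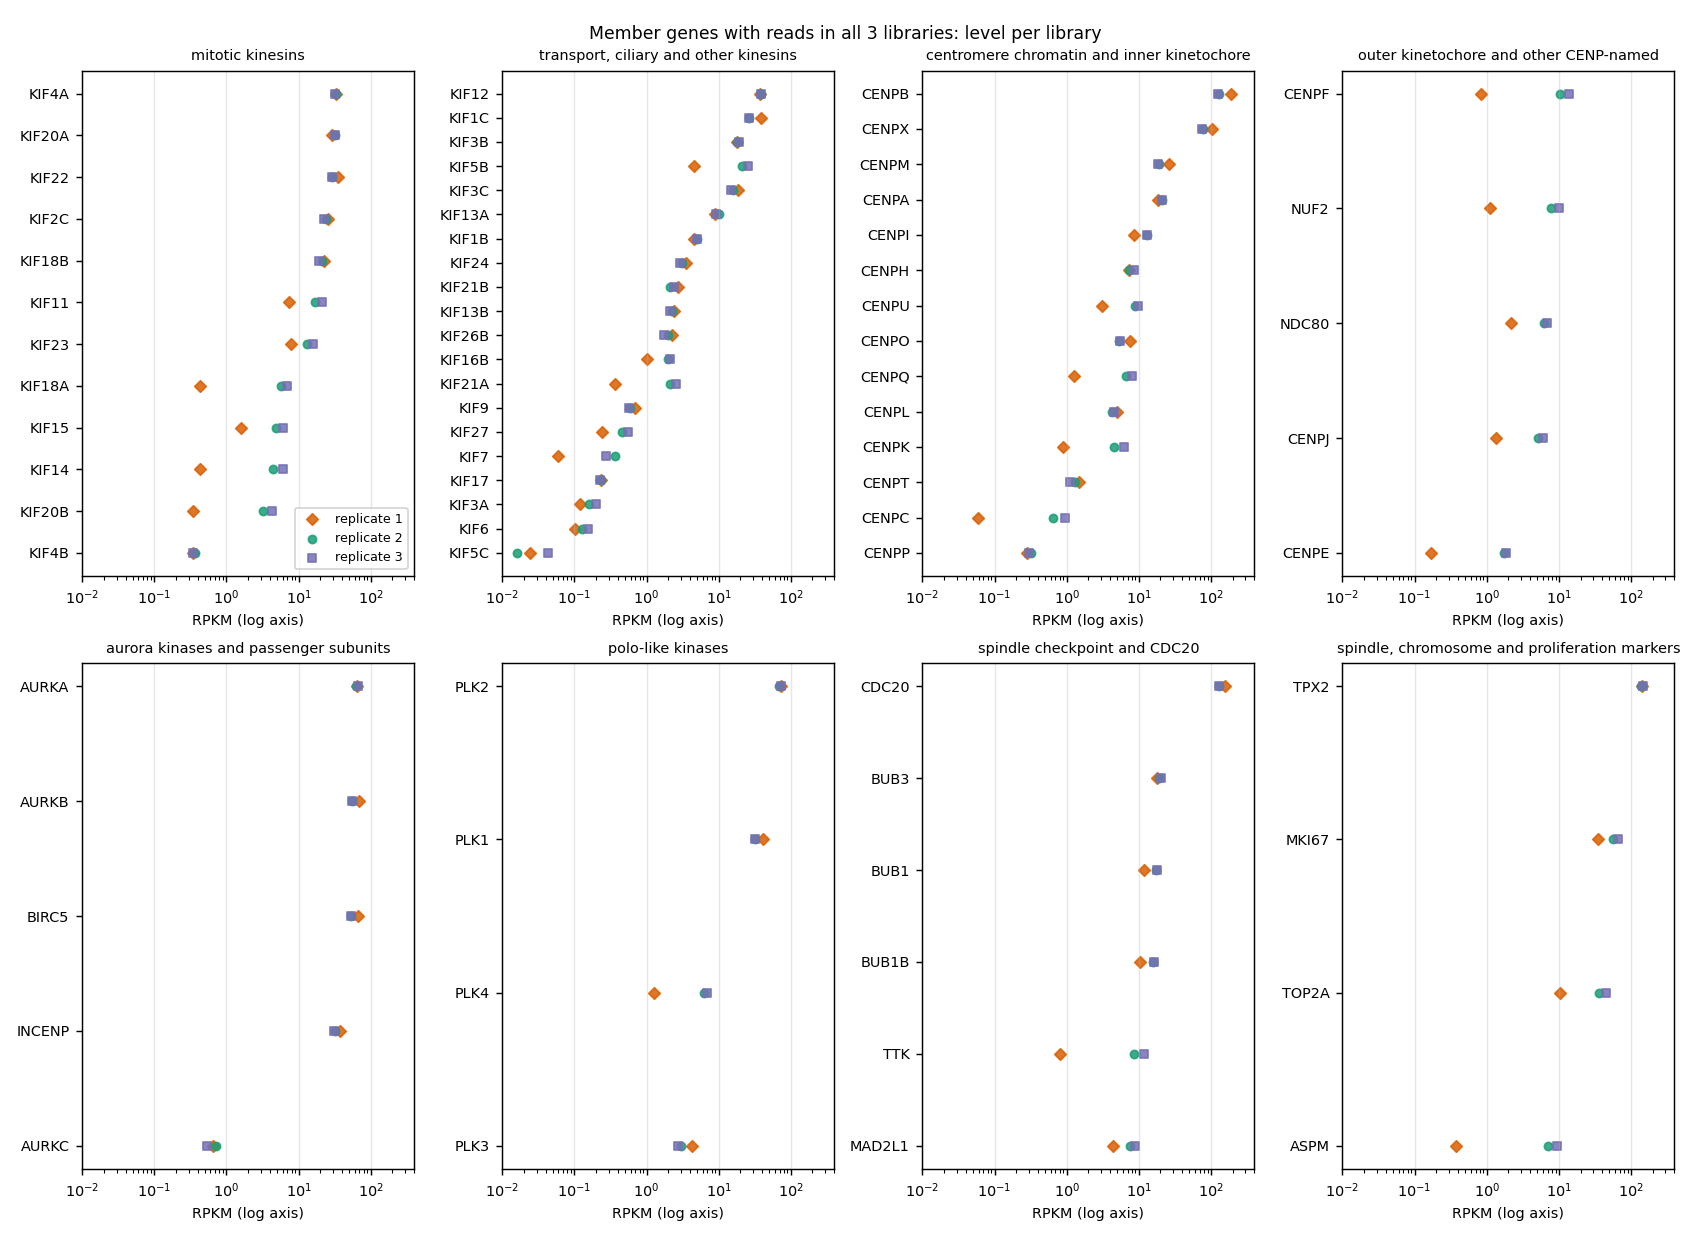
Level of each member with reads in all 3 libraries, in RPKM on a log axis, in 8 panels by role; diamonds are replicate 1, circles replicate 2 and squares replicate 3. CENPB, TPX2 and CDC20 lie highest, and in genes such as ASPM, TTK, CENPF and KIF18A the replicate 1 point lies far to the left of the other 2.

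The mitotic kinesins were detected for 12 of 14 genes, with a median of 8.34 RPKM. KIF4A, which acts on chromosome arms and the central spindle, had 32.5, 32.6 and 31.7 RPKM in replicates 1, 2 and 3 (mean 32.3 ± 0.489, SD). KIF20A, needed for cytokinesis, had 29.5, 31.5 and 32.4 RPKM (31.1 ± 1.51), and the chromokinesin KIF22 had 34.7, 29.5 and 28.9 RPKM (31.0 ± 3.20). The ranges of these 3 motors overlapped, and the libraries lay close together in KIF4A and KIF20A. The microtubule depolymerase KIF2C followed at 25.4, 23.8 and 22.6 RPKM (23.9 ± 1.43), and KIF18B, which limits astral microtubules, at 22.2, 20.8 and 19.0 RPKM (20.7 ± 1.61).

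The remaining spindle motors with reads were lower and, except for KIF4B, less even between libraries. KIF11, the plus-end motor that separates the spindle poles, had 7.26, 17.0 and 21.2 RPKM. KIF23, a subunit of the centralspindlin complex of cytokinesis, had 7.93, 13.02 and 16.0 RPKM. In both, replicate 1 was the lowest. KIF18A, which dampens chromosome movement at the metaphase plate, had 0.434, 5.64 and 6.98 RPKM. The cytokinesis motor KIF14 had 0.425, 4.46 and 6.18 RPKM. KIF20B, also known from cytokinesis, had 0.339, 3.21 and 4.31 RPKM. In these 3 genes the replicate 1 level was 11.1-fold to 14.5-fold below the mean of the other libraries. KIF15, a motor that backs up KIF11, had 1.57, 4.91 and 6.08 RPKM.

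At the bottom of the spindle motors, KIF4B had 0.345, 0.362 and 0.348 RPKM. It is an intronless copy of KIF4A, so its reads are uncertain. KIF2A and KIF2B had 0 reads listed in all 3 libraries, which was also so for 28.7% of the protein-coding genes. The exons of KIF2B, a gene known mainly from testis, lie wholly inside the span of another gene (100%). KIF2A, a depolymerase that most cells use, has 8.97% of its exons inside other genes, so its 0 is given only as listed.

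The kinesins of transport, cilia and other uses had the lowest median of the role groups, 1.67 RPKM, with 17 of 25 detected. KIF12, a gene known from kidney and liver epithelium, led them at 37.4, 38.2 and 38.7 RPKM (38.1 ± 0.654). It was nearly equal in the 3 libraries and above each of the 14 mitotic kinesins in every library. KIF1C, a transporter of vesicles and RNA, had 38.5, 26.3 and 26.1 RPKM, highest in replicate 1. The kinesin-2 subunits KIF3B and KIF3C had 18.2, 18.0 and 18.9 RPKM and 18.4, 15.6 and 15.0 RPKM, close to each other in level. KIF5B, the ubiquitous heavy chain of conventional kinesin, had 4.56, 21.0 and 25.6 RPKM, so this transport motor too was lowest in replicate 1. The neuronal motors KIF5A, KIF5C and KIF1A were close to nothing. KIF5A had 2, 0 and 6 reads, KIF5C had 6, 4 and 14 reads, and KIF1A was listed at 0 in each library.

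Among the other transport motors KIF13A had a mean of 9.40 ± 0.581 RPKM, KIF1B 4.83 ± 0.270 and KIF24, a regulator of cilium assembly, 3.18 ± 0.326 RPKM. KIF21B, KIF13B, KIF26B, KIF16B and KIF21A ranged between 1.67 and 2.41 RPKM in the mean. KIF9, KIF27, KIF7, KIF17, KIF3A and KIF6 lay between 0.128 and 0.618 RPKM. KIF3A, the partner of KIF3B in kinesin-2, has 87.1% of its exons inside another gene, on the opposite strand, and its level was 0.160 ± 0.0415 RPKM, on 22, 30 and 48 reads. Its overlap makes this value uncertain. KIF19, KIF25 and KIF26A had at most 10 reads in any library.

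Of the centromere chromatin and inner kinetochore genes 13 of 17 were detected, with a median of 5.32 RPKM. CENPB, which binds the alpha satellite repeats of centromeres, was the highest of all 82 members at 193, 130 and 126 RPKM (150 ± 37.3). It was highest in replicate 1. CENPX, a small histone-fold subunit, had 104, 77.8 and 75.9 RPKM, and CENPM had 26.2, 19.0 and 18.3 RPKM, again with replicate 1 on top. CENPA, the histone H3 variant that marks the centromere, had 18.3, 20.8 and 20.9 RPKM (20.01 ± 1.47), close together in all libraries.

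Other subunits of the inner kinetochore were spread over a wide range. CENPI had 8.50, 12.8 and 13.1 RPKM, and CENPH, CENPO, CENPL and CENPT had means between 1.29 and 7.73 RPKM. In CENPO, CENPL and CENPT replicate 1 was the highest, and in CENPH it matched replicate 2. CENPU had 3.07, 8.78 and 9.79 RPKM. CENPQ had 1.25, 6.65 and 8.06 RPKM, and CENPK 0.888, 4.52 and 6.18 RPKM. All 3 of these subunits were lowest in replicate 1. CENPC, which ties CENPA chromatin to the outer kinetochore, had only 14, 151 and 281 reads and missed the detection rule through replicate 1. For CENPS, CENPW and CENPN the table gave 0 reads in every library. The exons of CENPS and CENPN lie wholly inside other genes' spans (100%), whereas CENPW has no such overlap. CENPP (87.9% overlap), CENPT (72.8%) and CENPO (59.3%) have most of their exons inside genes on the other strand.

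Of the outer kinetochore and other CENP-named genes, kept as 1 group, 5 of 6 were detected, and all 5 were lowest in replicate 1. CENPF, a large protein of the kinetochore corona, had 0.844, 10.5 and 13.7 RPKM. NUF2 had 1.12, 7.82 and 9.98 RPKM and NDC80 had 2.15, 6.25 and 6.86 RPKM. These partners form the microtubule-binding arm of the kinetochore. CENPE, the kinetochore kinesin that moves chromosomes to the spindle equator, had 0.168, 1.72 and 1.85 RPKM, and CENPJ, a centriole protein despite its name, had 1.34, 5.06 and 6.06 RPKM. CENPV, which has 82.6% of its exons inside a gene on the other strand, had 0 reads listed throughout.

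Apart from AURKC, the aurora kinases and their partners were abundant. AURKA was even between libraries, and AURKB, BIRC5 and INCENP were highest in replicate 1. AURKA, the spindle pole kinase, had 65.2, 62.1 and 66.8 RPKM (64.7 ± 2.42), and AURKB, the catalytic subunit of the chromosomal passenger complex, had 68.6, 54.4 and 54.8 RPKM (59.3 ± 8.08). The passenger subunits BIRC5 (survivin) and INCENP had 65.7, 52.9 and 52.8 RPKM and 37.0, 32.2 and 31.0 RPKM. In none of these 4 did replicate 1 lie below the mean of the other libraries. AURKC, known mainly from meiosis, was barely detected at 0.636 ± 0.0863 RPKM with 34, 38 and 37 reads.

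PLK2, a stress-responsive member of the polo-like family, was its highest gene at 72.9, 68.8 and 73.9 RPKM (71.9 ± 2.70). PLK1, the main mitotic polo-like kinase, had 41.3, 32.4 and 31.8 RPKM (35.2 ± 5.30), below PLK2 in every library. PLK4, the master regulator of centriole duplication, had 1.28, 6.31 and 6.94 RPKM, and PLK3 had 4.28, 2.99 and 2.71 RPKM. In replicate 1 PLK3 lay above PLK4, and in replicates 2 and 3 below it. PLK5 had 0, 2 and 2 reads.

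All 6 checkpoint genes were detected, but over a wide range. CDC20 had 158, 129 and 129 RPKM (139 ± 16.5), higher than the other 5 genes of this group. BUB3, a scaffold of the checkpoint, had 17.7, 19.3 and 20.3 RPKM. The kinase BUB1 had 11.9, 17.3 and 18.1 RPKM, and BUB1B (BubR1) 10.4, 15.6 and 16.3 RPKM, so these partners differed little. MAD2L1, which encodes the Mad2 protein that binds CDC20, had 4.42, 7.50 and 8.94 RPKM. TTK, the Mps1 kinase that starts the checkpoint signal, had 0.812, 8.60 and 11.9 RPKM, 12.6-fold lower in replicate 1 than in the mean of the other libraries.

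TPX2, which activates AURKA and nucleates spindle microtubules, stood at 144, 138 and 145 RPKM (142 ± 4.13), next to CENPB and CDC20 at the top of all members. MKI67, the Ki-67 proliferation marker, had 34.6, 56.5 and 65.5 RPKM (52.2 ± 15.9). TOP2A, the topoisomerase that untangles sister chromosomes, had 10.5, 36.3 and 45.4 RPKM. ASPM, which organises spindle poles, had 0.372, 7.12 and 9.32 RPKM. The classical proliferation markers thus ranged from TPX2, nearly equal in the 3 libraries, to ASPM, far lower in replicate 1.

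Replicate 1 was then set against the mean of replicates 2 and 3 in the 59 members that averaged 5 CPM or more with a read in each library. The other 23 members were left out. Among them was CENPC, 13.2-fold lower in replicate 1, whose mean of 4.72 CPM over all libraries fell just under the limit. The filter includes replicate 1, so it can remove members that are very low there. Replicate 1 was more than 2-fold lower in 20 of the 59 (33.9%), against 13.7% of the 9511 genes that passed the same filter, and more than 2-fold higher in 0, against 0.0841%. Replicates 2 and 3 differed by more than 2-fold in 0 of the 59 members, against 0.0315% of all genes. The median log2 ratio of the 59 was -0.13, against 0.07 for all genes, and the range was -4.46 to 0.59. A library is not a group, so no p-value is attached to these counts.

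The 20 low members came from nearly every role. They were 5 of 11 mitotic kinesins measured (KIF18A, KIF14, KIF20B, KIF15 and KIF11), all 5 outer kinetochore and other CENP-named genes, 3 of 12 inner kinetochore genes (CENPK, CENPQ and CENPU), 3 of 13 transport kinesins (KIF21A, KIF5B and KIF16B), 2 of the 4 markers (ASPM and TOP2A), and TTK and PLK4. None of the 4 aurora and passenger genes was among them, too few to set against the 13.7% of all genes. Their longest transcripts had 46.6% to 59.6% GC, and 2.6% of all genes at 42% GC or more were low. Among the 59 members measured, the 8 lowest ratios were in ASPM (22.1-fold lower in replicate 1), KIF18A (14.5-fold), CENPF (14.3-fold), TTK (12.6-fold), KIF14 (12.5-fold), KIF20B (11.1-fold), CENPE (10.6-fold) and NUF2 (7.96-fold). At the other end CENPB, PLK3, KIF1C and CENPM were higher in replicate 1 by 0.59, 0.58, 0.56 and 0.49 on the log2 scale. Just past the 2-fold limit lay KIF16B with a log2 ratio of -1.02, and just short of it MAD2L1 with -0.89.

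The low members shared a low GC content, a feature their choice did not use. Their longest transcripts had a median GC content of 38.6% (32.9% to 45.7%), against 50.4% (39.4% to 66.2%) for the 39 other members measured. Below 42% GC, 18 of 21 members were more than 2-fold lower in replicate 1, and between 42% and 50% GC 2 of 18 were. At 50% GC or more, 0 of 20 were, and 19 of those 20 were higher in replicate 1. All genes moved the same way: 46.3% of those under 42% GC were low in replicate 1, against 2.6% of those at 42% or more. That share was 5.66% between 42% and 50% GC and 0.457% at 50% or more. In this last class the median log2 ratio was 0.29 for the members and 0.34 for all genes. Across the 59 members the log2 ratio and GC content had a Pearson r of 0.78 and a Spearman rho of 0.90, and across 9496 genes 0.67 and 0.76. These describe genes measured in the same 3 libraries, which share depth and preparation and are not independent replicates.

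The base composition can be read in stretches of coding sequence. For KIF18A and CENPF, among the 8 lowest ratios, and for the 3 members with the highest ratio, the middle 90 bases of the coding sequence of the longest GENCODE 29 transcript are printed 5′ to 3′, with every G and C in capitals. Those of KIF18A (GRCh38 chr11:28077040-28077129, minus strand), CENPF (chr1:214642965-214643054, plus strand) and CENPB (chr20:3785539-3785628, minus strand) lie in a single exon. Those of KIF1C (chr17:5014783-5020030, plus strand) and PLK3 (chr1:44803130-44803333, plus strand) span an intron.
KIF18A: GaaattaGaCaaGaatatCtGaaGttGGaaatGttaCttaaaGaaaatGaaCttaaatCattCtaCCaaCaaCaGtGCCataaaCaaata
CENPF: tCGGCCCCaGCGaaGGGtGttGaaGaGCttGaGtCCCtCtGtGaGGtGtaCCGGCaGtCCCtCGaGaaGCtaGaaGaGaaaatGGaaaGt
KIF1C: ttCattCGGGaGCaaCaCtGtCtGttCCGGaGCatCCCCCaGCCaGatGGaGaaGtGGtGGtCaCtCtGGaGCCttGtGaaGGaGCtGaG
PLK3: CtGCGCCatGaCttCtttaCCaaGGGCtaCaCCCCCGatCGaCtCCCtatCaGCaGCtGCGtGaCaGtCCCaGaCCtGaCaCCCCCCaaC
CENPB: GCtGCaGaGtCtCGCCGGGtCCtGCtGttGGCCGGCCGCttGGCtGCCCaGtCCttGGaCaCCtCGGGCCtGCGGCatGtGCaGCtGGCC
G and C made up 27.8% of the window in KIF18A and 54.4% in CENPF, against 56.7% in KIF1C, 60.0% in PLK3 and 71.1% in CENPB. The CENPF window is nearly as rich as that of KIF1C, so the printed stretches differ clearly from the other genes only in KIF18A. It is richer than the whole CENPF coding sequence, which holds 41.02% G and C, whereas KIF18A holds 37.6% over its own. The coding sequences of KIF1C, PLK3 and CENPB hold 60.6%, 60.8% and 64.9%.

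**Figure D2:**
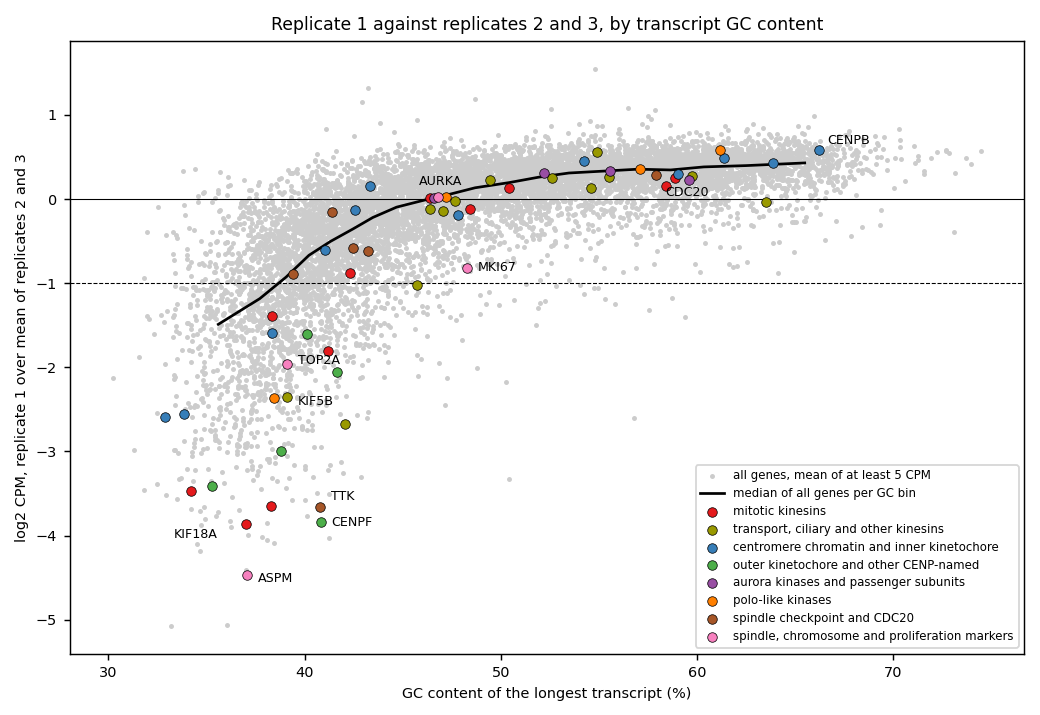
Log2 of the replicate 1 level over the mean level of the other 2 libraries against the GC content of the longest transcript, for all genes averaging 5 CPM or more (grey) and the 59 members measured (coloured by role); the line joins medians of all genes in 20 GC bins and the dashed line marks 2-fold lower. Members above 50% GC lie near the line, and members below 42% GC mostly lie under it.

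Most members of low GC content were lower in replicate 1 than other genes of similar GC content, with a median corrected log2 ratio of -1.30 for the 21 under 42% GC. After subtraction of the median ratio of all genes in the same of 20 GC bins, 17 of the 20 low members were still more than 2-fold lower, and no other member became so. That is 28.8% of the 59, against 5.29% of the 9496 genes with a GC value. No member was more than 2-fold higher, against 1.32% of those genes. KIF11 (-0.21), CENPU (-0.41) and NDC80 (-0.94) no longer passed 2-fold, whereas CENPF (-3.34), ASPM (-3.28), TTK (-2.99) and KIF18A (-2.68) remained far below. Of the 17, KIF16B (-1.004), TOP2A (-1.04), CENPQ (-1.06) and CENPK (-1.10) passed 2-fold only narrowly. BUB3 and MAD2L1, at 41.4% and 39.4% GC, had corrected ratios of 0.35 and 0.03, so a low GC content did not go with a low corrected ratio in every member. Across the 59 members the corrected ratio still followed GC content, with a Pearson r of 0.58 and a Spearman rho of 0.63, against 0.06 and -0.02 across all genes, so the subtraction did not remove the relation in the members. Transcript length had a Spearman rho with the ratio of -0.25 across members before the correction and -0.25 after it, against -0.28 and -0.11 across all genes. What set replicate 1 apart was not tested.

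**Figure D3:**
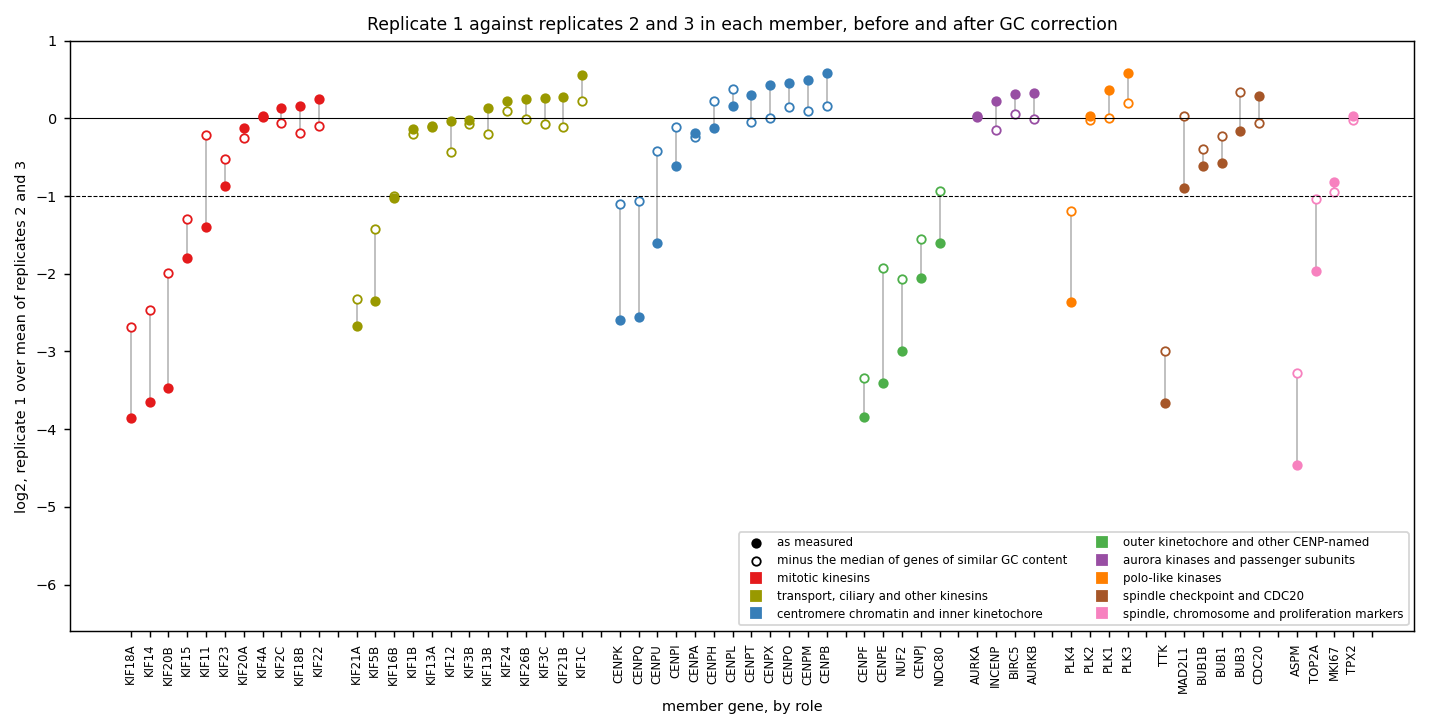
Log2 of the replicate 1 level over the mean level of the other 2 libraries for each of the 59 members measured, grouped by role, as measured (filled) and after subtraction of the median of all genes of similar GC content (open); the dashed line marks 2-fold lower. The correction moves KIF11 and MAD2L1 close to 0, while CENPF, ASPM, TTK and KIF18A stay below -2.

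The other genes of kinetochore, checkpoint, spindle and cytokinesis, listed by function, were examined in the same way. Of 25 kinetochore and checkpoint genes outside the 82, 22 were detected with a median of 8.49 RPKM, and 6 of the 22 measured were more than 2-fold lower in replicate 1 (5 after GC correction), against the 13.7% and 5.29% of all genes. SGO2, which protects centromeric cohesion, had 69, 829 and 1241 reads, while CDCA8, the borealin subunit of the passenger complex, had 5629, 4737 and 6138 reads. Of 23 spindle, cytokinesis and mitotic exit genes, 21 were detected with a median of 23.9 RPKM, and 8 of 21 were low in replicate 1 (7 after correction). ANLN, a scaffold of the cytokinetic ring, had 2608, 9350 and 14031 reads, and UBE2C, an enzyme that works with the anaphase-promoting complex, had 4583, 4192 and 5666 reads. KIFC1, a minus-end kinesin outside the symbols used, stood at 80.9 ± 8.14 RPKM, above each of the 39 KIF genes.

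Ratios between partner genes were formed within each library for 17 of 21 listed pairs, and a ratio counted as larger than the spread if its sign was shared by all 3 and its mean was over 2 SD. That held for 12 of the 17, and for all 17 without replicate 1, where only 2 libraries set the spread. With 3 libraries a two-sided exact sign-flip test cannot go below p = 0.25, so no p is given. TPX2 exceeded AURKA in each library (log2 AURKA/TPX2 -1.15, -1.15 and -1.12, mean -1.14 ± 0.02). INCENP was below both of its partners, with a log2 ratio of -0.77 ± 0.06 to BIRC5 and -0.82 ± 0.07 to AURKB (0.17 to AURKB on counts not divided by length). PLK1 was below CDC20 with a log2 ratio of -1.98 ± 0.04. BUB1 and BUB1B, sister kinase genes, were nearly equal, with a log2 ratio of 0.17 ± 0.02, but BUB1B has 20.6% of its exons inside a readthrough gene and the ratio was -0.16 with only the exon length outside other genes. On GC-corrected levels it was 0.17 and not past the spread. BUB1B exceeded MAD2L1 by a log2 ratio of 1.05 ± 0.18.

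For several partners replicate 1 decided the ratio. NDC80 and NUF2 had a log2 ratio of 0.94 in replicate 1 but -0.32 and -0.54 in replicates 2 and 3, a mean of 0.03 ± 0.80 that was not past the spread. KIF18A/KIF18B had -5.68, -1.89 and -1.44 (mean -3.002 ± 2.33) and CENPH/CENPK 3.04, 0.69 and 0.48 (1.40 ± 1.42), both not past the spread. AURKA/AURKB (0.13 ± 0.19) and CENPQ/CENPU (-0.66 ± 0.55) also did not pass. PLK1/PLK4 had 5.01, 2.36 and 2.20 and KIF20A/KIF20B had 6.44, 3.30 and 2.91, called at means of 3.19 ± 1.58 and 4.22 ± 1.94. Without replicate 1 these means were 2.28 and 3.10. The mean of PLK1/PLK4 was no longer over 2 SD without replicate 2 (3.60) or without replicate 3 (3.68), and that of KIF20A/KIF20B was not without replicate 2 (4.68) or without length scaling (3.42). KIF20A exceeded KIF23 by 1.39 ± 0.45, a call lost without length scaling (0.66), and CENPE was below CENPF (-2.61 ± 0.27). CENPO/CENPP (4.34 ± 0.33) and KIF3A/KIF3B (-6.88 ± 0.36) each hold a gene with over 80% of its exons inside other genes, which bears on their size. The ratios with KIF2A, CENPN, CENPW and CENPS were not formed.

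**Figure D4:**
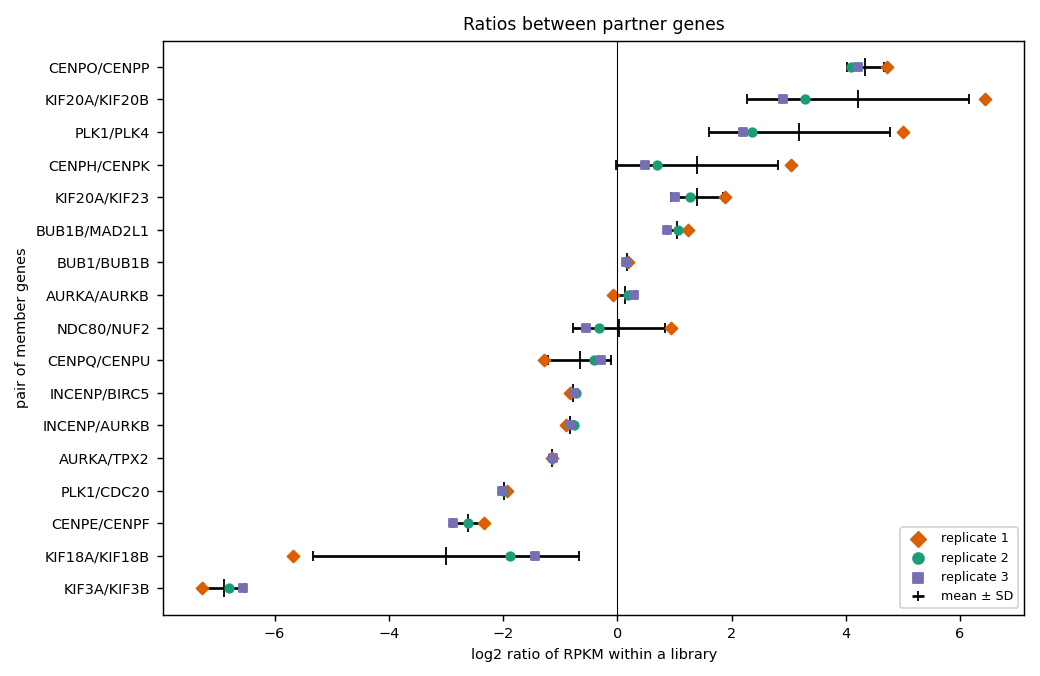
Log2 ratio of RPKM between partner genes within each library, for the 17 pairs formed, ordered by the mean; symbols are the 3 libraries and the black bar is mean ± SD. The symbols nearly coincide for AURKA/TPX2, PLK1/CDC20 and BUB1/BUB1B and lie far apart for KIF18A/KIF18B, PLK1/PLK4 and KIF20A/KIF20B.

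Promoters of the members were searched for letters that are background knowledge for genes of G2 and M phase: TTTGAA, the cell cycle genes homology region bound by the DREAM and MuvB complexes, its variant TTTAAA, and CCAAT, the site of the factor NF-Y. RefSeq promoters (GRCh38.p14, from 250 bases before to 50 after the gene start) matched 66 of the 82 members by symbol, and both strands were read. TTTGAA was found in 26 of the 66 (39.4%), against 15.4% of all 27305 promoters in the table and 12.0% of those of the 15170 protein-coding genes. It stood in 9 of 14 mitotic kinesins (64.3%) and 1 of 19 transport kinesins (5.26%, KIF5B). Among the other groups it was in 4 of 14 inner kinetochore genes, 3 of 5 outer kinetochore and other CENP-named genes, 3 of 4 checkpoint genes, all 3 of the markers matched (ASPM, MKI67 and TOP2A), 2 of 4 polo-like kinases and 1 of 3 aurora and passenger genes. Within 100 bases before the start it was in 12 of the 66 (18.2%), against 4.64% of all promoters. CCAAT was in 35 of the 66 (53.0%), against 35.7%, and TTTAAA in 10 (15.2%), against 12.3%. A match is only a run of letters and shows no binding.

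Outside the transport kinesins, the 25 members with TTTGAA anywhere in the promoter had a median level of 6.95 RPKM, against 4.59 RPKM for the 22 without it. The 22 include KIF2A, KIF2B, CENPS, CENPW and CENPV, each listed at 0 reads, and the 25 include CENPN, also at 0. With the genes listed at 0 left out, the order of these medians reverses, so they show no higher level with TTTGAA. The 12 members with TTTGAA within 100 bases before the start had a median level of 17.6 RPKM, against 5.32 RPKM for the 35 without it. The 4 highest of the 12 are printed to show where the letters lie. Each is the 120 bases before the gene start, 5′ to 3′ on the gene's strand, with TTTGAA and CCAAT, on either strand, in capitals. They come from CDC20 (chr1:43358861-43358980, plus strand), MKI67 (chr10:128126424-128126543, minus strand), PLK1 (chr16:23678769-23678888, plus strand) and INCENP (chr11:62123891-62124010, plus strand).
CDC20: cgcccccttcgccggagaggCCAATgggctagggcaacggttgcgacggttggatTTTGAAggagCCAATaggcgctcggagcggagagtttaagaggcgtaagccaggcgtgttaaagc
MKI67: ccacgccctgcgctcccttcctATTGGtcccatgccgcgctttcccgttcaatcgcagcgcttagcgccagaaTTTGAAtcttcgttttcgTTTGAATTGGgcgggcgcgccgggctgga
PLK1: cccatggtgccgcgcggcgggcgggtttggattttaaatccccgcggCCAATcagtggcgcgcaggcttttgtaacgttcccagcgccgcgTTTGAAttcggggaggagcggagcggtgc
INCENP: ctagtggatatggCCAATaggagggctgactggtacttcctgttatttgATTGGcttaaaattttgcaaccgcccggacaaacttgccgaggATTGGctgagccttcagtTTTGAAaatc
TTTGAA starts 65 bases before the start in CDC20, 47 and 29 bases before it in MKI67, 29 in PLK1 and 10 in INCENP. In MKI67 the nearer TTTGAA shares a base with CCAAT on the other strand. The same 4 genes stood at 139 ± 16.5, 52.2 ± 15.9, 35.2 ± 5.30 and 33.4 ± 3.16 RPKM.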

How the data were processed

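The labels name FastQC, cutadapt 1.18, HISAT2 2.1.0 and featureCounts 2.0.0 with hg38, per the submitters' processing notes; which annotation and strand setting they used is not given in the sources used here. Values deposited by the authors are a signal: gene counts divided by 1 size factor per library, as read from the values, since 100% of nonzero values were whole multiples of 1 read within 0.01 of a read. The size factors recovered were 0.946, 0.971 and 1.24. More genes had 2 reads than 1 (1621 against 269 in replicate 1), as counting both mates of a pair would give, so reads may not be independent molecules. The planned design allowed for such recovered reads.

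Gene identifiers were matched to GENCODE 29 (GRCh38) for 96.3% of 60605, with 99.9% of reads. Exon length is the union of exons, GC content that of the longest coding transcript, and overlap the share of exon length inside other genes' spans. TMM factors came from edgeR 4.0.16 and alternative size factors from DESeq2 1.42.0 in R 4.3.3, with log2 levels at a pseudocount of 0.1. The ratio and its GC correction in 20 bins were tested on simulated data. There the GC trend was linear or absent, and the changed genes were picked without regard to GC content. The low members here mostly had low GC content, a case that simulation does not cover. Replicates 2 and 3 had a chi-square per degree of freedom of 15.3, against 111 and 165 for the pairs with replicate 1, so no library was a copy of another. The rule for named genes took the highest and lowest of each role, both genes of each pair, the 8 lowest and 4 highest ratios and all members at 0, and allowed every member with its value. The members, role groups, gene lists and pairs were chosen with earlier results of these data known. The coding stretch of the member with the lowest ratio is not reported here.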

Additional observations from a re-analysis of the deposited data

How the results depend on the processing

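The number of detected members, 66, was 40 at 10 CPM and ranged from 66 to 69 without 1 replicate in turn; it was 69 without replicate 1. The median log2 level, 2.13, lay between 1.65 and 2.70 without 1 replicate in turn, the highest being without replicate 1. The count of 20 members low in replicate 1 lay between 17 and 23 under every alternative run. The median log2 ratio of -0.13 was -0.094 with the scaling as deposited, -0.19 after GC correction, and -0.38 without the transport, ciliary and other kinesins; against replicate 3 or replicate 2 alone it was -0.15 and -0.12. For both results on replicate 1, the alternatives without those kinesins and without replicate 2 or 3 were chosen after seeing the data. The number of pairs past the spread, 12, ranged from 10 to 17 without 1 replicate in turn. The sign changed in 3 results: log2 INCENP/AURKB was 0.17 without length scaling, BUB1/BUB1B was -0.16 with the exon length outside other spans, and NDC80/NUF2 was -0.43 without replicate 1 (-0.43 to 0.31 over the libraries left out). The cause was not tested. No paired analysis was possible because there is 1 group. Levels of members with few reads rest on those counts, such as 14 reads for CENPC in replicate 1, and carry a large counting error.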
